A study of Mus musculus with 10 samples.

Results

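Caspases are proteases that cut their substrates after aspartate, and the inflammasome is the assembly of sensor and adaptor proteins that activates the inflammatory ones. The genes described here are 8: the inflammatory caspases Casp1, Casp4 and Casp12, the initiator caspase Casp8, the pore-forming gasdermin Gsdmd, the sensors Nlrp3 and Aim2, and the adaptor Pycard (ASC). They were taken by name, as every probe set whose annotation holds exactly 1 of these symbols, which gave 11 of 34945 single-gene probe sets and 8 of 18193 genes. The genes were chosen by their measured genotype differences on these same arrays, so those differences are given as a description, with no p-value printed.

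RNA was measured on Affymetrix mouse expression arrays in 10 whole tumors of B16, a melanoma line that grows in C57BL/6 mice. The samples were 5 tumors of genotype Bach2-deficient and 5 of wild-type genotype (WT), all on the C57BL/6 background. Bach2 encodes a transcriptional repressor of lymphocytes. The comparison asks how the RNA of a tumor with its infiltrating cells differs between the genotypes. How Bach2 was altered, whether host or tumor cells carried the deficiency, the age and sex of the animals, and whether each tumor had its own animal are not given in the labels. Errors and p-values therefore reflect only the scatter among these 10 samples, some of which may be technical.

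Caspase-1 is recruited by Pycard to sensors such as NLRP3 and AIM2, and it cuts pro-interleukin-1β, pro-interleukin-18 and gasdermin D. Mouse caspase-4, long called caspase-11, binds bacterial lipopolysaccharide in the cytosol and also cuts gasdermin D, whose fragment opens pores in the plasma membrane in the lytic death called pyroptosis. Caspase-8 starts apoptosis below death receptors, and the mitochondrial route runs through caspase-9. Macrophages and dendritic cells are the cells best known for inflammasomes.

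Values are log2 RMA units, in which a difference of 1 is a doubling of signal. The medians of the arrays ran from 5.80 to 5.88, and precision is set by how many arrays there are. A gene is called at a limma adjusted p under 0.05 over all 18193 genes, which 28.7% of genes passed, 2962 (16.3%) higher and 2264 (12.4%) lower in Bach2-deficient tumors. The Bach2 probe set that stands for the gene read 5.89 ± 0.55 in Bach2-deficient and 6.96 ± 0.76 in WT tumors (SD, n = 5 each; -1.07, limma adjusted p = 0.0551), and 1 of its 3 probe sets was called lower. The melanocyte marker list averaged 11.30 to 12.02 on the Bach2-deficient and 11.85 to 12.17 on the WT arrays, and 3 of its 10 genes were called lower. Poly-A spike controls read 10.08 ± 0.10 on the Bach2-deficient and 12.16 ± 0.18 on the WT arrays, with no overlap. Hybridization controls read 11.49 ± 0.13 on the Bach2-deficient and 12.19 ± 0.30 on the WT arrays, also with no overlap. A technical difference behind these controls and genotype cannot be told apart. Xist, an RNA of the inactive X chromosome, read 4.76 to 6.61 on the Bach2-deficient arrays other than replicate 2, 11.86 on that replicate and 11.36 to 12.23 on the WT arrays. High and low Xist thus followed genotype on every array but Bach2-deficient replicate 2, so an Xist-linked difference and genotype can hardly be told apart.

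All 8 genes were called higher in Bach2-deficient tumors and 0 lower, beside 16.3% and 12.4% of all genes, and nothing is read from that count because the genes were chosen with this contrast known. The groups did not overlap for any of the 8, beside 11.2% of all genes without overlap and higher, and 7.67% without overlap and lower. Their differences ran from 0.80 to 2.82 on the log2 scale with a median of 1.91, against a median of -0.06 over all genes. All 11 probe sets were called higher, beside 14.1% of all single-gene probe sets, and 9 of them did not overlap, beside 9.81%. Every group mean of these probe sets exceeded 4.98, below which the dimmest 30% of genes lie. In whole tumors, more cells of a type and more RNA per cell cannot be told apart.

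**Figure D1:**
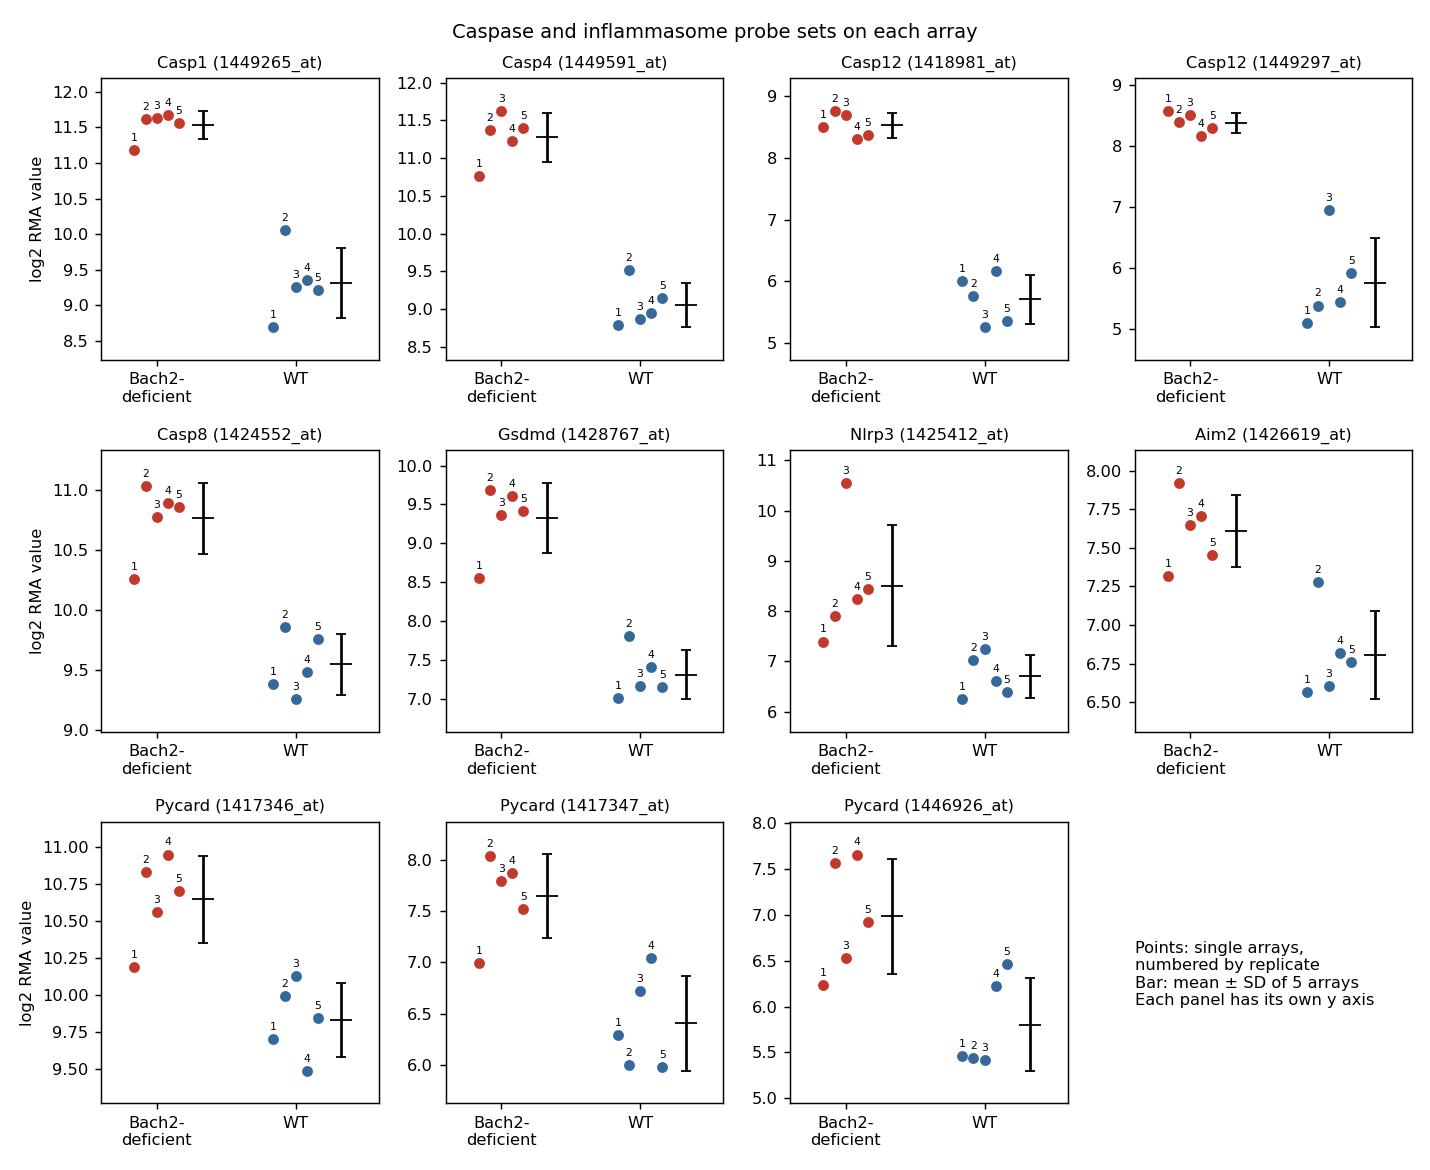
Log2 RMA value of each of the 11 probe sets (1 panel each, with its own y axis) on the 5 Bach2-deficient arrays (red, left) and the 5 WT arrays (blue, right). Points are arrays numbered by replicate and bars are means ± SD. The 2 Casp12 and the Casp1 and Casp4 panels show the widest gaps between groups, and the lower-reading Pycard probe sets overlap.

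The inflammatory caspases had the largest differences of the 8 genes. They lie side by side on mouse chromosome 9 in the RefSeq gene order, Casp1, then Casp4, then Casp12. Their start-site regions are shown because these neighbours were the most raised and can be compared letter by letter. The sequences are RefSeq windows of GRCm38.p6 from 250 bases before to 50 after the start, 5′ to 3′, with Casp8 beside them as the apoptotic initiator. Capitals mark matches to the motifs named after them.
Casp1 (chr9:5298267-5298566, + strand): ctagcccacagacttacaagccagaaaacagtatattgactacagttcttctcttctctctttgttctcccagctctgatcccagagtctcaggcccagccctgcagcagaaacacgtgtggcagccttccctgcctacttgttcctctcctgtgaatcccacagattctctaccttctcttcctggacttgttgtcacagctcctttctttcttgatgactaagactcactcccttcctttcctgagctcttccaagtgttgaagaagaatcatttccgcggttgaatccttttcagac
Casp4 (chr9:5308599-5308898, + strand): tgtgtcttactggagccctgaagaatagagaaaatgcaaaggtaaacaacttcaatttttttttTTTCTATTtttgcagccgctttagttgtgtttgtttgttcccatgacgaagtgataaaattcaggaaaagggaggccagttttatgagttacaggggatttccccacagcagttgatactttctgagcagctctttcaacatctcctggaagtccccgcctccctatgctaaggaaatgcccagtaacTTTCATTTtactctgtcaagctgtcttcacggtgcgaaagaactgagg
Casp12 (chr9:5345226-5345525, + strand): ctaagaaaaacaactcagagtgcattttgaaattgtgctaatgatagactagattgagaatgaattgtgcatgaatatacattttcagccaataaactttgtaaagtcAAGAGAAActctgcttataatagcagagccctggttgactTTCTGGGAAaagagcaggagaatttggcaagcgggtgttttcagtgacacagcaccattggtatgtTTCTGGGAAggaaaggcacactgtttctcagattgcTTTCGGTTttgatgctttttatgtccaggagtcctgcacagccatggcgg
Casp8 (chr1:58802252-58802551, + strand): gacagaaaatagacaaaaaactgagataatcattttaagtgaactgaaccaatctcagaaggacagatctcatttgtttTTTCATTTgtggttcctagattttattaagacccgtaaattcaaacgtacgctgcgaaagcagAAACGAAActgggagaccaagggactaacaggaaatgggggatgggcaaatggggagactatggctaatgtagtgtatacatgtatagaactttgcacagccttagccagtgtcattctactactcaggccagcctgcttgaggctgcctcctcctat

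On both strands, the searched motifs were TTCNNNGAA (GAS, the palindromic letters bound by STAT dimers), the core of the interferon-stimulated response element, here called by its name,, AANNGAAA (a shorter core of interferon regulatory factors, which the longer element can contain) and TGANTCA (the letters shared by AP-1 and BACH factors). Windows were found for 7 of the 8 genes, with 2 windows each for Casp4 and Nlrp3. A gene counts if any of its windows matched, whereas the share over all genes is of single windows, so the units differ. TTCNNNGAA was in 8.3% of 32851 windows of all genes and in the window of 1 of the 7 genes, Casp12, which held TTCTGGGAA at positions -102 and -36 from the start site. AANNGAAA was in 23.9% of all windows and in those of 5 of the 7 genes, Casp4, Casp12, Casp8, Nlrp3 and Pycard. The core of the interferon-stimulated response element (3.44% of all windows) and TGANTCA (7.81%) were in 0 of the 7. These are matches of letters only, and the window of Casp1 held none of the 4 motifs.

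Casp1 (probe set 1449265_at), the protease that matures interleukin-1β and interleukin-18, read 11.19, 11.61, 11.63, 11.67 and 11.56 in the Bach2-deficient tumors, replicates 1 to 5, against 8.69, 10.06, 9.26, 9.36 and 9.22 in the WT tumors, replicates 1 to 5. Its Bach2-deficient values lay close together apart from replicate 1, which was the lowest, and WT replicate 2 was the highest WT tumor. The means were 11.53 ± 0.20 in Bach2-deficient and 9.32 ± 0.49 in WT tumors (SD, n = 5 each), a difference of 2.21 (SE 0.22), or 4.64-fold.

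Casp4 (probe set 1449591_at), the lipopolysaccharide receptor of the cytosol, read 10.76, 11.38, 11.63, 11.22 and 11.40 in the Bach2-deficient tumors, replicates 1 to 5, against 8.78, 9.51, 8.86, 8.95 and 9.15 in the WT tumors, replicates 1 to 5. Replicate 1 was again the lowest Bach2-deficient tumor and replicate 2 the highest WT tumor. The means were 11.28 ± 0.32 in Bach2-deficient and 9.05 ± 0.29 in WT tumors (SD, n = 5 each), a difference of 2.23 (SE 0.18), or 4.68-fold.

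Casp12, a caspase grouped with the inflammatory caspases by sequence, was read by 2 probe sets. Its brighter one, 1418981_at, read 8.50, 8.76, 8.70, 8.31 and 8.37 in the Bach2-deficient tumors, replicates 1 to 5, against 6.00, 5.76, 5.25, 6.16 and 5.36 in the WT tumors, replicates 1 to 5. Here Bach2-deficient replicate 1 was not the lowest, and the gap between the groups was the widest among the 8 genes, 2.15 between the lowest Bach2-deficient and the highest WT value. The means were 8.53 ± 0.20 in Bach2-deficient and 5.71 ± 0.40 in WT tumors (SD, n = 5 each), a difference of 2.82 (SE 0.19), or 7.07-fold. The other probe set, 1449297_at, read 8.58, 8.39, 8.51, 8.17 and 8.30 in the Bach2-deficient tumors, replicates 1 to 5, against 5.10, 5.39, 6.96, 5.45 and 5.92 in the WT tumors, replicates 1 to 5. Its difference was 2.63 (SE 0.30), and its WT values ranked the tumors differently, with replicate 3 highest here and lowest on 1418981_at.

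Casp8 (probe set 1424552_at), which starts apoptosis below death receptors and restrains necroptosis, read 10.26, 11.03, 10.78, 10.89 and 10.86 in the Bach2-deficient tumors, replicates 1 to 5, against 9.38, 9.85, 9.25, 9.48 and 9.75 in the WT tumors, replicates 1 to 5. The groups were 0.40 apart at their nearest values. The means were 10.76 ± 0.30 in Bach2-deficient and 9.54 ± 0.25 in WT tumors (SD, n = 5 each), a difference of 1.22 (SE 0.17), or 2.33-fold.

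Of the 6 apoptotic caspases listed, 4 were measured, and Casp8 was the only one called in the fit on all 10 arrays. Casp2, an initiator caspase, averaged 10.34 ± 0.07 in Bach2-deficient and 10.05 ± 0.24 in WT tumors (SD, n = 5 each), a difference of 0.30 (SE 0.12, 95% interval 0.03 to 0.56, limma adjusted p = 0.0890). Casp9, the caspase of the apoptosome, averaged 11.07 ± 0.32 in Bach2-deficient and 10.32 ± 0.56 in WT tumors (0.75, SE 0.26, limma adjusted p = 0.0563), and 2 of its 3 probe sets pointed up. Casp6, an effector caspase, averaged 7.75 ± 0.24 in Bach2-deficient and 6.94 ± 0.68 in WT tumors (0.81, SE 0.29, limma adjusted p = 0.0588). The values of Casp2, Casp6 and Casp9 overlapped between the groups, and the misses of Casp6 and Casp9 were narrow. All 4 were called with array weights or without WT replicate 4, and 3 with the dim-gene filter or the replicate block. The count was 2 without Bach2-deficient replicate 1, as the mean of probe sets or with trended robust moderation. It was 0 with the melanocyte covariate, where 425 of all 18193 genes were called higher.

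Set against each other on every array, the inflammatory caspases stood higher relative to the apoptotic ones in Bach2-deficient tumors. The mean of Casp1, Casp4 and Casp12 minus that of Casp2, Casp6, Casp8 and Casp9 was 0.42, 0.40, 0.84, 0.32 and 0.35 in the Bach2-deficient tumors, replicates 1 to 5, against -1.33, -0.85, -0.83, -1.42 and -1.50 in the WT tumors, replicates 1 to 5. The groups did not overlap, and they averaged 0.47 ± 0.21 in Bach2-deficient and -1.19 ± 0.32 in WT tumors (SD, n = 5 each), a difference of 1.65. Probe sets differ in affinity, so the size of the value on 1 array has no meaning by itself, and no test is given because the genes were chosen with the contrast known.

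**Figure D2:**
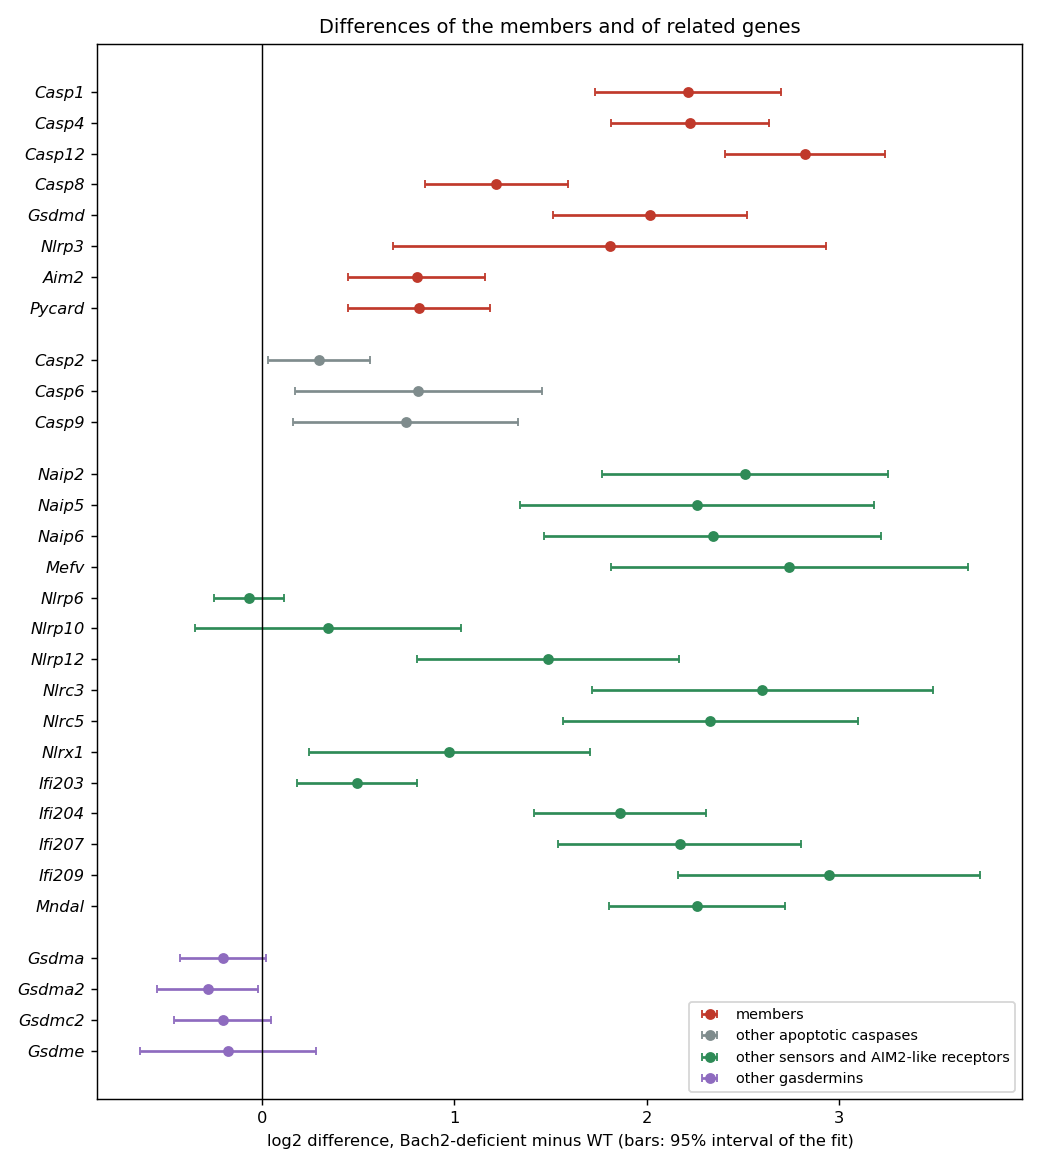
Log2 difference, Bach2-deficient minus WT, with the 95% interval of the fit. Colours mark the 8 genes (red), the other measured apoptotic caspases (grey) and other gasdermins (purple). Green marks AIM2-like receptors and other NLR and pyrin family genes, labelled other sensors. Casp12 lies at 2.82, the grey caspases lie between 0.30 and 0.81, and the gasdermins other than Gsdmd lie between -0.28 and -0.18. Of these gasdermins, Gsdma and Gsdmc2 had both group means under 4.98.

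Gsdmd (probe set 1428767_at), the pore-forming substrate of caspase-1 and caspase-4, read 8.55, 9.68, 9.36, 9.61 and 9.42 in the Bach2-deficient tumors, replicates 1 to 5, against 7.01, 7.81, 7.17, 7.41 and 7.15 in the WT tumors, replicates 1 to 5. Replicate 1 was the lowest Bach2-deficient tumor, and the remaining tumors of the group lay between 9.36 and 9.68. The means were 9.33 ± 0.45 in Bach2-deficient and 7.31 ± 0.31 in WT tumors (SD, n = 5 each), a difference of 2.02 (SE 0.23), or 4.05-fold. Of 9 other gasdermin genes listed, 4 were measured and 0 were called in either direction by limma, with differences from -0.28 to -0.18 and a median of -0.20. Gsdma averaged 4.70 ± 0.13 in Bach2-deficient and 4.90 ± 0.13 in WT tumors (-0.20, limma adjusted p = 0.156). Gsdme, the gasdermin cut by apoptotic caspases, averaged 10.30 ± 0.30 in Bach2-deficient and 10.47 ± 0.40 in WT tumors (-0.18, limma adjusted p = 0.541), and its 2 probe sets pointed opposite ways. Both group means of Gsdma and of Gsdmc2 (2.65 in Bach2-deficient and 2.85 in WT tumors) lay under 4.98, so their sizes of change are not exact. Gsdma2 lay not far above, at 5.19 in Bach2-deficient and 5.47 in WT tumors. With median centring 2 of the 4 were called lower, and 1 was with the mean of probe sets or without WT replicate 2.

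Nlrp3 (probe set 1425412_at), the sensor of potassium efflux and membrane damage, had the widest spread of the 8 genes. It read 7.39, 7.91, 10.55, 8.24 and 8.44 in the Bach2-deficient tumors, replicates 1 to 5, against 6.25, 7.02, 7.25, 6.60 and 6.39 in the WT tumors, replicates 1 to 5. Bach2-deficient replicate 3 was far above the other tumors, and replicate 1 was only 0.15 above the highest WT tumor. The means were 8.51 ± 1.21 in Bach2-deficient and 6.70 ± 0.42 in WT tumors (SD, n = 5 each), a difference of 1.81 (SE 0.51), or 3.5-fold. Without Bach2-deficient replicate 3 the difference was 1.30, still among the calls. The call was lost without WT replicate 1 (1.69) and with the melanocyte covariate (1.39). With the Xist term, which separates arrays of high and low Xist, the difference was 1.21. Of the Bach2-deficient arrays only replicate 2 had high Xist, so that fit compares this array alone with the WT arrays. Replicate 3 also had the highest macrophage and monocyte (11.68) and neutrophil marker means (8.83) of the Bach2-deficient arrays, but narrowly. Replicate 2, where Nlrp3 read 7.91, had a macrophage and monocyte mean of 11.67. Replicate 4, where Nlrp3 read 8.24, had a neutrophil mean of 8.75. The single neutrophil markers were split. Camp read 9.46 on replicate 4 and 5.24 to 5.99 on the other Bach2-deficient arrays, and Mpo and Elane were also highest there. S100a8, S100a9, Csf3r, Cxcr2 and Mmp8 were highest on replicate 3, where Cxcr2 read 10.80, against 7.94 to 8.27 on the other Bach2-deficient arrays. The part of these cells in the Nlrp3 value was not tested.

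Aim2 (probe set 1426619_at), which binds double-stranded DNA in the cytosol, read 7.32, 7.92, 7.65, 7.70 and 7.46 in the Bach2-deficient tumors, replicates 1 to 5, against 6.56, 7.28, 6.60, 6.82 and 6.76 in the WT tumors, replicates 1 to 5. The lowest Bach2-deficient and highest WT values were 0.039 apart. The means were 7.61 ± 0.23 in Bach2-deficient and 6.81 ± 0.29 in WT tumors (SD, n = 5 each), a difference of 0.80 (SE 0.16), or 1.75-fold, the smallest of the 8.

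Pycard, the adaptor that links sensors to caspase-1, was read by 3 probe sets. The brightest, 1417346_at, read 10.19, 10.84, 10.56, 10.95 and 10.71 in the Bach2-deficient tumors, replicates 1 to 5, against 9.70, 9.99, 10.13, 9.49 and 9.85 in the WT tumors, replicates 1 to 5. The nearest values of the groups were 0.064 apart. The means were 10.65 ± 0.29 in Bach2-deficient and 9.83 ± 0.25 in WT tumors (SD, n = 5 each), a difference of 0.82 (SE 0.17), or 1.76-fold. The other probe sets, 1417347_at and 1446926_at, differed by 1.24 (SE 0.25) and 1.18 (SE 0.32), and on both the lowest Bach2-deficient tumor, replicate 1, lay under the highest WT tumor.

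The 8 genes often shared their lowest Bach2-deficient tumor but not a full order of the tumors. Bach2-deficient replicate 1 was the lowest of its group for 7 of them, Casp12 being the exception, where replicate 4 was. Replicate 1 was also the lowest for 77.5% of the genes called higher. The highest Bach2-deficient tumor was replicate 2 for 4 of the 8 genes, replicate 3 for 2 and replicate 4 for 2. WT replicate 2 was the highest WT tumor for 5 of the 8, and for 16.3% of the genes called higher.

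Marker lists of infiltrating cells moved on the same arrays, and their counts stand beside 16.3% of all genes called higher and 12.4% called lower. Macrophage and monocyte markers averaged 10.98 to 11.68 on the Bach2-deficient and 9.26 to 10.49 on the WT arrays, with 12 of 13 called higher, and T cell markers 9.50 to 10.86 on the Bach2-deficient and 6.15 to 7.53 on the WT arrays, with 11 of 11 called higher. NK cell markers averaged 8.51 to 9.81 on the Bach2-deficient and 5.44 to 6.94 on the WT arrays (5 of 5 called higher). Dendritic cell markers averaged 6.88 to 8.04 on the Bach2-deficient and 5.90 to 6.53 on the WT arrays (6 of 8), and neutrophil markers 7.50 to 8.83 on the Bach2-deficient and 7.35 to 7.65 on the WT arrays (2 of 8). Of the stromal lists, 2 of 6 fibroblast genes were called lower, 1 of 6 endothelial genes was called higher and 2 lower, and 0 of 6 keratinocyte genes were called by limma. The part of these cells in the differences of the 8 genes was not tested. With the melanocyte list mean in the fit, Casp1 (1.94), Casp4 (1.97), Casp12 (2.92) and Gsdmd (1.47) were still called, and Casp8 (0.92), Nlrp3 (1.39), Aim2 (0.54) and Pycard (0.35) were not. Calls fell over all 18193 genes in that fit, to 425 higher and 174 lower, from 2962 and 2264. The Xist term compares Bach2-deficient replicate 2 alone with the WT arrays, so its calls are not given. Its differences included 1.21 for Nlrp3 and 1.00 for Pycard, and all 8 were positive.

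**Figure D3:**
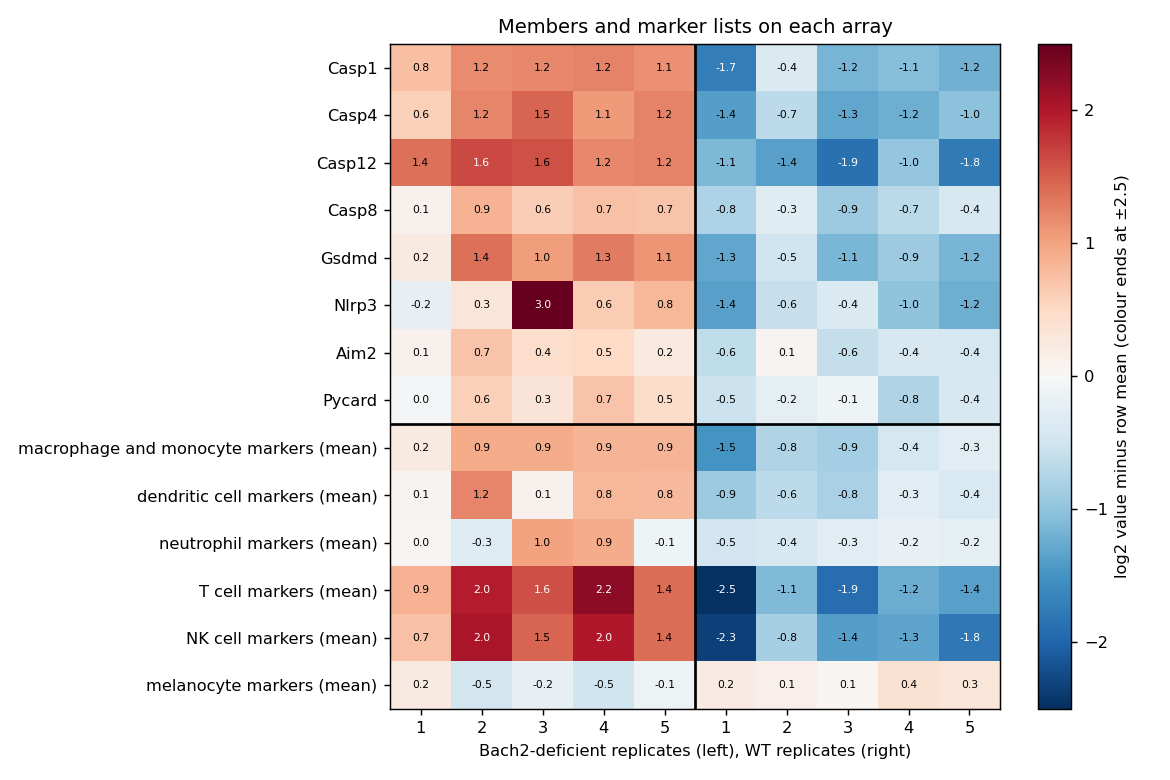
Log2 value of each of the 8 genes, and mean log2 value of 6 marker lists, on each array after subtracting the row's mean over the 10 arrays; columns are Bach2-deficient replicates 1 to 5, then WT replicates 1 to 5. The 8 genes and the lymphocyte and macrophage lists are higher in the left block, Bach2-deficient replicate 1 is the palest column there for most rows, and the melanocyte row is higher in the right block apart from Bach2-deficient replicate 1.

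The genes whose profiles over the 10 arrays were nearest to those of the inflammatory caspases were sought over all genes. The measure is the root mean square difference of log2 values after each gene is centred on its mean, so it depends on the size of the group difference as well as on single arrays, and all arrays share the same groups. Nearest to Casp1 were Mndal, an AIM2-like receptor (0.168), H2-Ab1, the β chain of an MHC class II molecule (0.194), and Ifih1, the RNA sensor MDA5 (0.205), with its neighbour Casp4 just behind (0.206). Nearest to Casp4 after Casp1 were H2-Ab1 (0.214) and the interferon-responsive genes Ifit3 (0.223) and Rtp4 (0.226). Gsdmd lay 0.238 from Casp1 and 0.239 from Casp4, where the median over all genes was 1.21 and 1.20. Casp12 was further from both, 0.541 and 0.484, and its nearest genes were Tbc1d10c (0.337), Pik3cd, a leukocyte phosphoinositide kinase (0.352), and Rgs16, a regulator of G protein signalling (0.362). Nearest to Aim2 were the chromatin gene Ep400 (0.094), the phosphatase gene Ppp4c (0.121) and Apof (0.131), the last with both group means under 4.98. Aim2 was 0.252 from Pycard and 0.255 from Casp8, against a median over all genes of 0.569. From the rest of the 8 genes it lay further than that median, 0.636 (Gsdmd) to 1.06 (Casp12).

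The nearest gene that the array read on each side of the 8 in the RefSeq order, with unread genes between in places, did not always rise. Around the 3 inflammatory caspases these were Gria4, a glutamate receptor gene, with 7 genes between (-1.14, SE 0.27, called lower, limma adjusted p = 0.0109), and Pdgfd, with 3 between (0.16, SE 0.44, limma adjusted p = 0.805). Around Casp8, with 1 gene between on each side, they were Cflar, its inactive relative c-FLIP (0.28, SE 0.11, limma adjusted p = 0.0807), and Trak2, which fell by 0.71 (SE 0.09, limma adjusted p = 0.000718). Next to Aim2 lay Cadm3 (-0.12, limma adjusted p = 0.357), and on the other side, with 3 genes between, Ifi213, another AIM2-like gene, which rose by 1.80 (SE 0.24, limma adjusted p = 0.000648). Around Gsdmd, Zc3h3, with 4 genes between, differed by -0.35 without a call, and Naprt, with 1 between, rose by 0.48 (limma adjusted p = 0.0452). Next to Nlrp3, 4933439C10Rik differed by -0.48 without a call, and on the other side, with 6 genes between, Mprip fell by 0.51 (limma adjusted p = 0.0171). Around Pycard neither Prss36, with 1 gene between (-0.27), nor the adjacent Trim72 (-0.22) was called.

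Other genes of the sensor families rose. Of 14 listed genes of the NLR and pyrin families outside the 8 genes, not all of them inflammasome sensors, 10 were measured. Of these 8 rose and 0 fell, beside 16.3% and 12.4% of all genes, with a median difference of 2.30. The same shares stand beside the counts of the lists that follow. Counts with the melanocyte covariate stand beside fewer calls over all 18193 genes, 425 higher and 174 lower. Mefv, which encodes pyrin, averaged 9.93 ± 0.47 in Bach2-deficient and 7.19 ± 0.94 in WT tumors (2.74, SE 0.42, limma adjusted p = 0.00131), Nlrc3 rose by 2.60 (SE 0.40) and Naip2, the receptor for a rod protein of bacterial secretion systems, by 2.51 (SE 0.34). Naip genes are near-identical copies, so their probe sets may share signal. Nlrp6 (-0.07) and Nlrp10 (0.34) did not pass, with both group means under 4.98. The count was 0 with the melanocyte covariate.

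All 5 measured AIM2-like receptor genes of 8 listed rose, with a median of 2.17. Ifi209 averaged 11.33 ± 0.40 in Bach2-deficient and 8.38 ± 0.79 in WT tumors (2.95, SE 0.35, limma adjusted p = 0.000446). Mndal rose by 2.26 (SE 0.21, an _x_at probe set, which can bind related transcripts), Ifi207 by 2.17 (SE 0.28) and Ifi204 by 1.86 (SE 0.20), and Ifi203 by 0.50 (SE 0.14), with groups that overlapped. The count was 4 with median centring or the melanocyte covariate, and also without Bach2-deficient replicate 2, 4 or 5 or WT replicate 1. These genes are close relatives, so their probe sets may share signal too.

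Of 11 measured genes of the interleukin-1 and interleukin-18 families, which hold cytokines, receptors and the antagonists Il1rn and Il18bp, 8 rose and 0 fell, with a median of 1.54. Il1b averaged 12.87 ± 0.55 in Bach2-deficient and 11.57 ± 0.40 in WT tumors and rose by 1.30 (SE 0.28, limma adjusted p = 0.00649), and Il18 averaged 9.81 ± 0.32 in Bach2-deficient and 8.27 ± 0.29 in WT tumors and rose by 1.54 (SE 0.18, limma adjusted p = 0.000429). These 2 substrates of caspase-1 are named after their values were seen. The largest rises belonged to Il18rap (3.28, SE 0.60) and Il18r1 (3.08, SE 0.35), the chains of the interleukin-18 receptor, and to Il18bp, which encodes the protein that neutralises interleukin-18 (3.24, SE 0.40). Il1r1, the signalling receptor of interleukin-1 (-0.56, limma adjusted p = 0.440), and Il33 (1.06, limma adjusted p = 0.0872) did not pass. The count was 3 with the melanocyte covariate.

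Of 9 genes for triggers of the inflammasome and for membrane rupture, 7 rose and 0 fell, with a median of 0.93. Cybb, the NADPH oxidase subunit of phagocytes, rose by 2.76 (SE 0.35), Sting1, the adaptor of cytosolic DNA sensing, by 2.20 (SE 0.22, an _s_at probe set) and Pstpip1, a pyrin partner, by 1.87 (SE 0.26). Nek7, the kinase that NLRP3 needs to assemble, averaged 11.80 ± 0.07 in Bach2-deficient and 11.79 ± 0.13 in WT tumors (0.01, SE 0.09, 95% interval -0.19 to 0.21, limma adjusted p = 0.947), and Panx1, a membrane channel, differed by 0.31 (limma adjusted p = 0.180). With the melanocyte covariate 2 of the 9 were called.

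Of 10 listed genes of the death receptor pathway that leads to Casp8, 9 were measured, 6 rose and 0 fell, with a median of 1.16. Fas rose by 3.06 (SE 0.49) and the death ligand genes Fasl and Tnfsf10 (TRAIL) by 4.75 (SE 0.32) and 2.80 (SE 0.36), the WT mean of Fasl (4.52) being under 4.98. Fadd, the adaptor that recruits caspase-8, averaged 7.91 ± 0.28 in Bach2-deficient and 8.04 ± 0.37 in WT tumors (-0.13, limma adjusted p = 0.639), and its 2 probe sets pointed opposite ways. Tnfrsf10b, the receptor of TRAIL, differed by 0.28 (limma adjusted p = 0.483). The count was 3 with the melanocyte covariate.

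Of 12 measured mitochondrial apoptosis genes, 7 rose and 0 fell, with a median of 0.71. The BH3-only genes Bcl2l11 (BIM) and Pmaip1 (NOXA) rose by 1.64 (SE 0.25) and 1.57 (SE 0.26), and the survival gene Bcl2 by 1.02 (SE 0.17). Bbc3 (PUMA; -0.10, limma adjusted p = 0.567) and Cycs, cytochrome c (-0.23, limma adjusted p = 0.0925), did not pass. With the melanocyte covariate 1 was called. The count of falls in this list was 3 with median centring, 2 with repeated quantile normalization, array weights or without Bach2-deficient replicate 1, and 1 with trended robust moderation.

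Of 5 inhibitor of apoptosis genes, 4 rose and 0 fell, with a median of 0.48. Birc3 rose by 2.31 (SE 0.33), Birc2 by 1.09 (SE 0.15), Xiap by 0.48 (SE 0.14) and Birc6 by 0.44 (SE 0.10), and Birc5 (survivin) differed by -0.31 (limma adjusted p = 0.0884). The rises numbered 2 with median centring or the mean of probe sets and 1 with the melanocyte covariate. A fall of 1 gene was called with median centring, array weights or without Bach2-deficient replicate 1.

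Interferon factors known to act on caspase and sensor genes rose, all 5 measured of 6 listed, with a median of 2.64. Irf1 averaged 11.55 ± 0.41 in Bach2-deficient and 8.31 ± 0.43 in WT tumors (3.24, SE 0.25, limma adjusted p = 8.84e-05). Irf8, a factor of myeloid cells, rose by 2.94 (SE 0.33), Stat2 by 2.64 (SE 0.35), Irf2 by 1.88 (SE 0.23, an _s_at probe set) and Irf9 by 1.66 (SE 0.28). Of these, 4 were called with the melanocyte covariate.

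**Figure D4:**
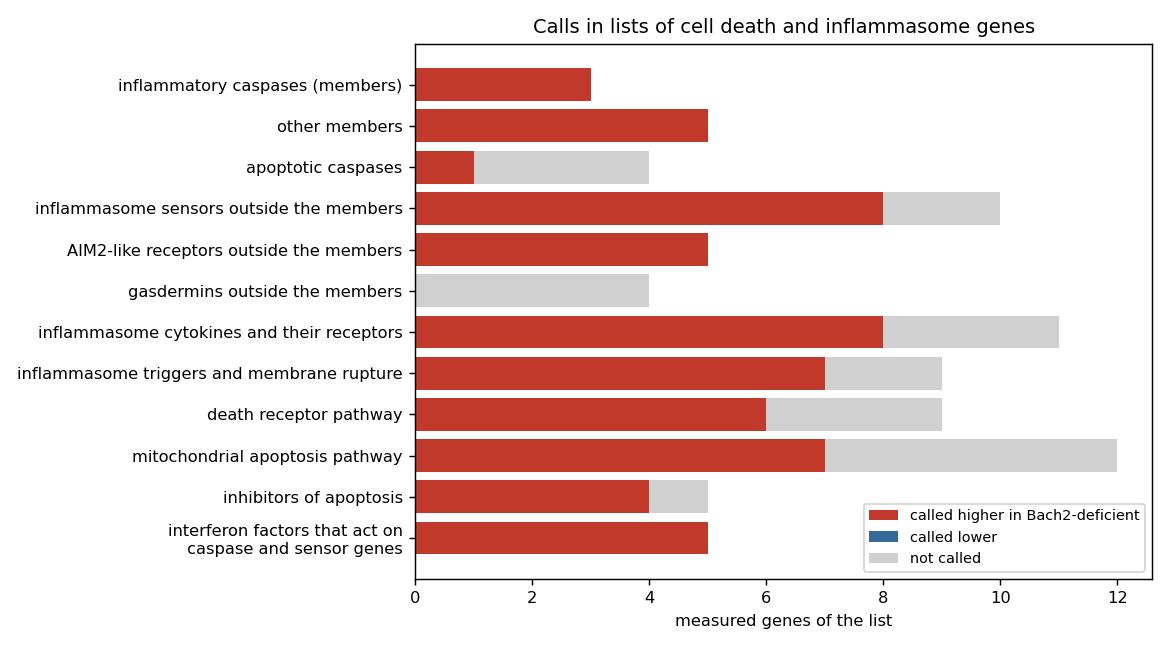
Number of measured genes in each list that were called higher in Bach2-deficient tumors (red), called lower (blue, none here) or not called (grey), by limma adjusted p under 0.05 over all genes. The apoptotic caspases have 1 of 4 in red and the other gasdermins 0 of 4, and all 5 AIM2-like receptors and all 5 interferon factors are red.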

How the data were processed

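Values are the authors' deposited log2 signals, with 1 array for each sample, made with RMA and Partek per the submitters' processing notes, whose versions were not stated. RMA corrects background, quantile-normalizes arrays and summarizes probes. The scale follows from the range of the values, 1.99 to 14.4, which were used unchanged. Of 45101 probe sets, 64 were controls, 34945 had 1 gene symbol in the platform annotation, 932 several and 9160 none; only the single-gene ones were used. Of them, 34741 had a gene ID in the RefSeq table (GRCm38.p6), and 0 symbols changed. For every gene the brightest probe set by mean over the 10 arrays was taken, giving 18193 genes. No genome build is named in the files, so the gene table served for names, order and the RefSeq start-site windows only.

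Groups and replicate numbers came from the sample titles. Differences, Bach2-deficient minus WT, came from limma 3.58.1 (R 4.3.3; lmFit and eBayes, 2-sided) run on the 10 arrays together, with Benjamini-Hochberg adjustment over all genes, or over all single-gene probe sets for single probe sets; the fit was tested on simulated data. No detection calls were used. The 8 genes, the lists and the tests were chosen with earlier results of these data known. Named genes were the 8, all measured apoptotic caspases, for other lists the 3 largest called rises and falls and the 2 smallest changes, the 3 nearest profiles of Casp1, Casp4, Casp12 and Aim2, and the nearest neighbouring genes. Alternatives were a dim-gene filter, the mean of probe sets, median centring, repeated quantile normalization, trended robust moderation, the replicate block, array weights, an Xist term, the melanocyte list mean as a covariate, and leaving out each array.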

Additional observations from a re-analysis of the deposited data

Results flagged for a closer look

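Within each group of 5 arrays, the lowest and highest array of the named genes was set against the rest by the ratio of its gap to the group's range, with 0.71 as the critical value. Of 112 groups tested, 13 exceeded it, and chance gives about 1 in 20; the groups share arrays, so they are not independent. In 10 of the 13 the array was Bach2-deficient replicate 1, lowest of its group. Casp1 read 11.19 there, against 11.56 to 11.67 in the other Bach2-deficient tumors (ratio 0.776), and Gsdmd read 8.55 against 9.36 to 9.68 (ratio 0.713). The ratios of the other genes lowest in that replicate were 0.802 for Ifi207, 0.723 for Ifi209, 0.816 for Il18bp, 0.834 for Cybb, 0.724 for Sting1, 0.855 for Bcl2l11, 0.818 for Pmaip1 and 0.935 for Irf2. WT replicate 1 was the lowest WT tumor for Ifi204 (8.19, ratio 0.739) and Ifi209 (ratio 0.759). WT replicate 4 was the highest WT tumor for Nlrp10 (4.77, ratio 0.789), a level under 4.98.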

How the results depend on the processing

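All 8 genes kept a positive difference under each of the 19 alternatives. The Xist term compares Bach2-deficient replicate 2 alone with the WT arrays, so only its differences are used and its calls are left out. The count of the 8 called higher was 4 with the melanocyte covariate and ran from 7 to 8 with 1 array left out. It stayed at 8 under the other alternatives. The count called lower was 0 throughout, from 0 to 0 with 1 array left out. Calls over all genes numbered 5226, 1417 with the Xist term, 599 with the melanocyte covariate, 7104 with median centring, and from 3658 to 5925 with 1 array left out. The split was 2962 higher and 2264 lower, 2288 and 4816 with median centring, 2563 and 2783 with repeated quantile normalization, and 425 and 174 with the covariate. Median centring moved the median difference of all genes by -0.16, and the difference of every gene with it. The difference between inflammatory and apoptotic caspases (1.65) ran from 1.56 to 1.74 with 1 array left out. Same-numbered arrays of the groups were not treated as pairs. The correlations of their deviations from the group means were all positive, from 0.0062 to 0.32. Those of replicate 1 (0.32) and replicate 3 (0.22) were the largest of all pairs of arrays. Not every array correlated best with its own number, so these correlations cannot decide whether the arrays are paired. With the replicate block 4952 genes and all 8 of the described genes were called. Apart from the Xist term, 2 alternatives lost a call among the 8. The covariate lost Casp8, Nlrp3, Aim2 and Pycard, and leaving out WT replicate 1 lost Nlrp3. The cause was not tested.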
